A study of Mus musculus with 4 samples.

Results

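Slitrk1, Hdc, Wwc1, Nipbl, Fn1 and Cntn6 are mouse genes whose human counterparts have been proposed as candidate genes for Tourette disorder besides Celsr3. They were chosen by symbol as the rows of these names in a spatial count table of the mouse brain, and they make up 6 of its 19465 genes. The table comes from coronal sections of 4 mice, 2 wild type and 2 Celsr3 heterozygous, given no treatment. The brains had been trimmed to show the striatum, fixed in formalin and embedded in paraffin, and the sections were read with Visium CytAssist, in which gene probes bound in the tissue are moved onto an array of barcoded spots. Each spot covers a small region, which can hold several cells. Celsr3 encodes an adhesion receptor of the cadherin family, and all mice kept at least 1 intact copy of it by their labels. The age, the strain and the design of the Celsr3 allele are not given in the sources used here.

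Tourette disorder is defined by motor and vocal tics and is linked to the circuits that join the cortex, the striatum and the thalamus. The 6 genes do not form 1 pathway. Slitrk1 encodes a transmembrane adhesion protein of neurons that binds presynaptic receptor tyrosine phosphatases and shapes neurites and synapses. Cntn6 encodes contactin 6, a membrane-anchored adhesion molecule of the immunoglobulin superfamily that acts in neurite growth and synapse formation. Hdc encodes histidine decarboxylase, the enzyme that makes histamine from histidine, which in the brain is known from neurons of the posterior hypothalamus and from mast cells. Wwc1 encodes KIBRA, a scaffold protein of the Hippo growth control pathway that is also found at synapses and is known for its link to memory. Nipbl encodes the loader that places the ring-shaped cohesin complex on chromosomes. Fn1 encodes fibronectin, a glycoprotein of the extracellular matrix that cells bind through integrins and that is made by vessels and connective tissue.

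Spot names ended in 1 to 4, which split the spots into 4 barcode sets. The labels connect 0 of the 4 endings with an animal or its genotype. Values are therefore given for each set, with no comparison of the genotypes, no mean over sets and no test. The sets held 2808 to 3444 spots with at least 500 counts each and 90752475 to 174761560 counts, with median counts per spot of 52481, 38181.5, 44972 and 26444.5 in sets 1 to 4. Of 4744 barcodes, 1613 occurred in all 4 sets. Spots were placed in 15 areas by marker genes that hold none of the 6 genes, and 2190 spots (17.4%) were left in no area. Of the spots given an area, 1599 were less than 0.5 above their next area. An area was used in a set with at least 30 of its spots, which 12 areas had in all sets, thalamus in sets 1 and 4, and choroid plexus in sets 1 and 3. The spots placed by the list of lateral septum genes had 0 of those markers among their 10 leading genes, so they are called the Ctxn3 and Prkcd rich area, used in sets 2 and 3. Layers 5 and 6 had 1 of their markers among the 10 leading genes and thalamus had 2, so these names rest on fewer genes than the others. A level is in CPM, which is a gene's summed counts per 1000000 summed counts of all genes in the same spots. Probes differ between genes, so levels are compared for a gene between areas and not between genes. Intervals are exact 95% intervals that cover counting error only, and a level is called higher or lower where the interval of its ratio to all other spots of the set leaves out 1. A lower level in spots can come from fewer cells of a type or from less RNA per cell, which cannot be told apart here.

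All 6 genes passed the minimum mean of 1 CPM, as did 13773 genes in all, and their counts differed widely. Over the 4 sets, 81791 counts of Slitrk1, 42850 of Wwc1, 19169 of Nipbl, 12784 of Fn1, 12723 of Cntn6 and 622 of Hdc were found. With the fewest counts, Hdc carries by far the widest intervals. Each of the other 5 genes had its own pattern over the areas. Slitrk1 was highest in cortical layers and low in striatum and white matter, Cntn6 was highest in thalamus and layer 5, Wwc1 in choroid plexus and ventricle lining, and Fn1 in meninges. Nipbl varied least over areas and most between sets. Among the 90 pairs of gene and area, 4 were at least 2-fold higher and 4 at least 2-fold lower than the other spots in every set that held the area. Of all pairs of a tested gene and an area, 2.84% and 4.67% were. The higher pairs were Cntn6 in thalamus, Hdc in ventricle lining, Wwc1 in choroid plexus and Fn1 in meninges. The lower pairs were Slitrk1 in striatum, white matter and choroid plexus, and Cntn6 in choroid plexus.

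**Figure D1:**
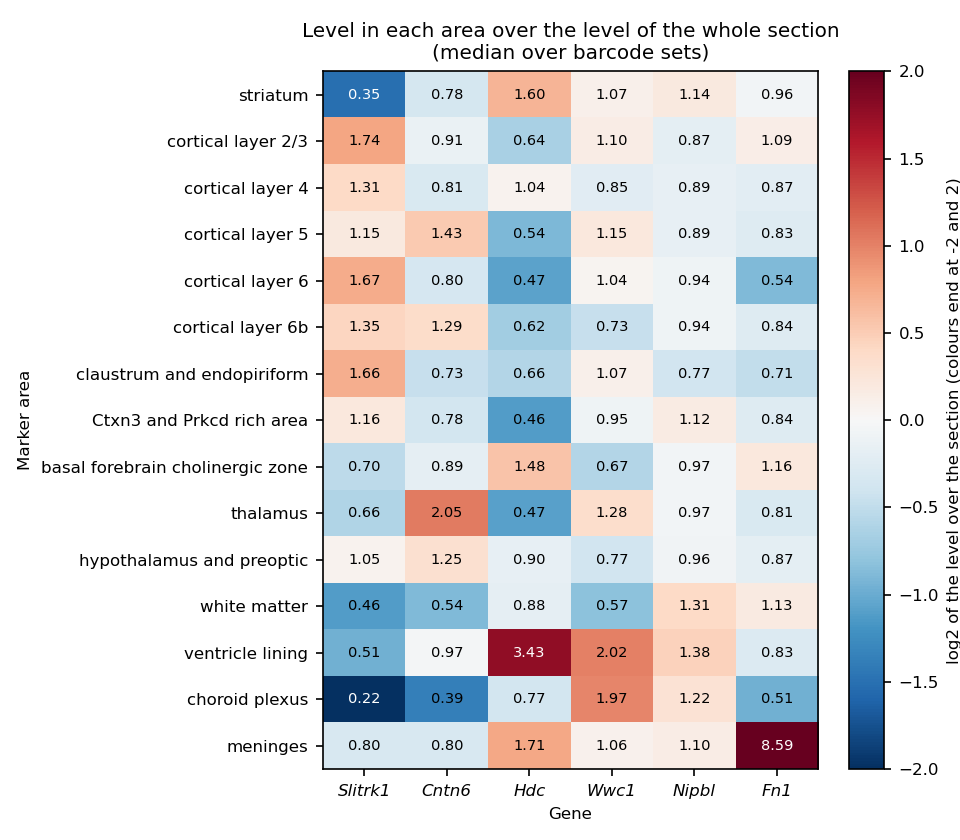
Median over sets of the level in each of 15 areas (rows) over the level in the whole section, as log2, for the 6 genes (columns). Colours end at log2 values of -2 and 2. Red is higher and blue is lower than the section. Fn1 in meninges and Hdc in ventricle lining are the deepest red cells, Slitrk1 in striatum and choroid plexus among the deepest blue, and the Nipbl column is the most even.

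Slitrk1 was highest in cortical spots. In layer 2/3 its level was 282.0, 241.7, 276.5 and 238.5 CPM in sets 1 to 4. In layer 6 it was 270.7, 252.5, 258.8 and 235.8 CPM, and in claustrum and endopiriform spots 265.5, 251.5, 257.3 and 234.3 CPM. The ranges of these 3 areas overlapped, and all 3 lay above layer 6b at 152.4 to 217.8 CPM. Layer 2/3 spots held 5.12% to 13.8% of all counts of a set and 9.97% to 20.5% of its Slitrk1 counts. The ratio of layer 2/3 to the other spots was 2.05, 1.61, 1.85 and 1.86, and its interval lay above 1 in 4 of 4 sets, as for 12.5% of the tested genes. Layer 4 followed at 182.3 to 238.2 CPM and layer 5 at 161.5 to 187.7 CPM. Outside the cortex, the Ctxn3 and Prkcd rich area had 235.4 CPM in set 2 and 136.5 CPM in set 3, with ratios of 1.48 and 0.860 on either side of 1. The hypothalamus and preoptic area had 125.6 to 168.9 CPM, with ratios of 0.892 to 1.12.

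In the striatum, the input station of the basal ganglia, Slitrk1 was at 52.5, 43.3, 53.8 and 56.8 CPM in sets 1 to 4. These values rest on 1451, 1003, 1651 and 583 counts. All 4 sets lay far below every cortical value. Against the other spots the ratio was 0.324 (interval 0.307 to 0.341), 0.222 (0.209 to 0.237), 0.297 and 0.380 (0.349 to 0.413), so striatum was at least 2-fold lower in every set. The same held for 8.88% of the tested genes. Striatal spots held 11.3% to 21.1% of all counts and 4.62% to 6.35% of the Slitrk1 counts. Within each set the striatum had 0.179 to 0.238 of the layer 2/3 level.

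White matter was the next lowest large area for Slitrk1, at 68.2, 70.8, 71.9 and 65.2 CPM. It too was at least 2-fold lower than the other spots in every set, with ratios of 0.429 to 0.452, as 3.77% of the tested genes were. Striatum was still below white matter, with 0.612 to 0.872 of its level within the sets. The lowest levels were in choroid plexus, at 31.1 and 36.6 CPM in sets 1 and 3. Its ratios of 0.208 and 0.227 lay below 1 in both sets, as for 39.9% of the tested genes. In the thalamus, where sets 1 and 4 held 94.2 and 92.8 CPM, Slitrk1 was below the cortical layers as well. After each spot was thinned to 10000 counts, 94.9%, 87.1%, 93.0% and 86.9% of layer 2/3 spots had a Slitrk1 count. In the striatum it was 40.4%, 30.9%, 40.6% and 45.8% of spots, against 89.4%, 69.2%, 85.1% and 74.6% before thinning. Choroid plexus, a tissue without neurons, had a count in 16.4% and 33.7% of thinned spots.

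The low striatal level of Slitrk1 was not even. Striosomes are islands of striatal projection neurons marked by the mu opioid receptor gene Oprm1 and set in the surrounding matrix. Striatal spots of each set were ranked by the summed level of 7 striosome genes, and the 25% of spots highest in them, called the top end, were set against the lowest 25%, called the bottom end, with 103 to 184 spots in each. Slitrk1 was at 72.7 against 36.2 CPM in set 1, 55.8 against 34.4 in set 2, 67.3 against 48.2 in set 3, and 66.8 against 48.1 in set 4. The top end was higher in 4 of 4 sets, with ratios of 2.01 (interval 1.73 to 2.34), 1.62 (1.35 to 1.95), 1.4 (1.22 to 1.60) and 1.39 (1.10 to 1.76). Of the tested genes, 2.95% were higher in the same spots in all sets. Summed genes of cortical excitatory neurons were at 79.9 against 33.2, 75.5 against 30.6, 79.0 against 49.1 and 55.4 against 93.4 CPM in the same spots, so they moved with the striosome genes in 3 sets and against them in set 4. With the spots highest in cortical genes left out, the Slitrk1 ratios were 2.14, 1.55, 1.26 and 1.44. Nnat gave 19.8% to 29.5% of the counts of the striosome list, and without it the ratios were 2.07, 1.59, 1.45 and 1.47. The list was not particular to the striatum: it summed to 404 to 822 CPM there, 1446 to 2090 in hypothalamus, 791 to 1185 in basal forebrain and 2877 to 4251 in the ventricle lining, so spots at the border of the striatum can rank high in it. With the spots lowest in the striatal marker score left out, the ratios were 2.09, 1.71, 1.31 and 1.09, and the interval in set 4 held 1 (0.811 to 1.46). The striosome list and these checks were chosen after the data were seen.

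Other lists also split the striatal Slitrk1 level. Between the top and bottom ends in genes of direct pathway neurons, which carry the dopamine receptor Drd1 and share Pdyn with the striosome list, the median ratio was 1.47, with a range of 1.15 to 1.67. For genes of indirect pathway neurons, which carry Drd2, it was 0.855, with a range of 0.682 to 1.00. For cortical excitatory genes within the striatum it was 1.41 and the interval lay above 1 in 4 of 4 sets, as for 0.334% of the tested genes. Within cortical layers 2/3 to 6 the top end in excitatory genes had 1.25 times the Slitrk1 level of the bottom end in the median, and 1.18 times with the ends taken within each layer. The top end in GABA neuron genes had 0.818 and 0.860 times.

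**Figure D2:**
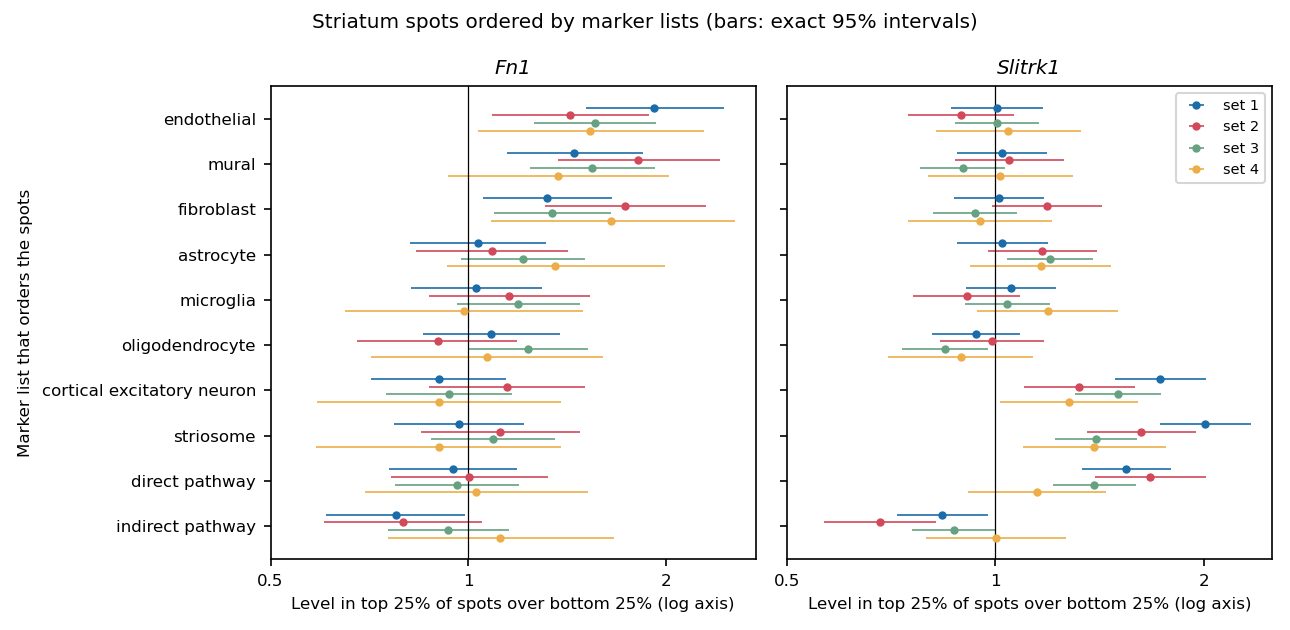
Level of Fn1 (left) and Slitrk1 (right) in the 25% of striatal spots highest in each of 10 marker lists over the lowest 25%, on a log axis; points are the 4 barcode sets and bars are exact 95% intervals for counting error. The Slitrk1 points lie above 1 in all sets for lists that include the striosome, cortical excitatory and direct pathway lists. The Fn1 points do so for lists that include the endothelial, mural and fibroblast lists.

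Among 8 other genes of the Slitrk family and its presynaptic partners, none reached the striatal ratio of Slitrk1. In every set 0 were 2-fold higher and 0 were 2-fold lower in striatum, against 2.90% and 8.88% of the tested genes, and their median log2 ratio was -0.17 against -0.13 over all tested genes. In the median over sets Slitrk2 had 1.36, Slitrk5 1.33 and Slitrk3 1.17 times the level of the other spots in the striatum. The phosphatase genes Ptprd and Ptprs, which encode presynaptic receptors for Slitrk proteins, had 0.515 and 0.567 times. In layer 2/3, where Slitrk1 led, Slitrk3 was the highest of the list at a log2 ratio of 0.58 and Slitrk6 the lowest at -3.62. Slitrk6 had its highest log2 ratio in thalamus, at 5.07. Over 54 sums of spots by area and set, the genes most like Slitrk1 among 11466 were Basp1, Ube2ql1, Sstr3, Lancl2 and Kcnj3, with Pearson correlations of 0.95, 0.94, 0.93, 0.93 and 0.93. The sums share their libraries, so these correlations describe the areas of the 4 sets.

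**Figure D3:**
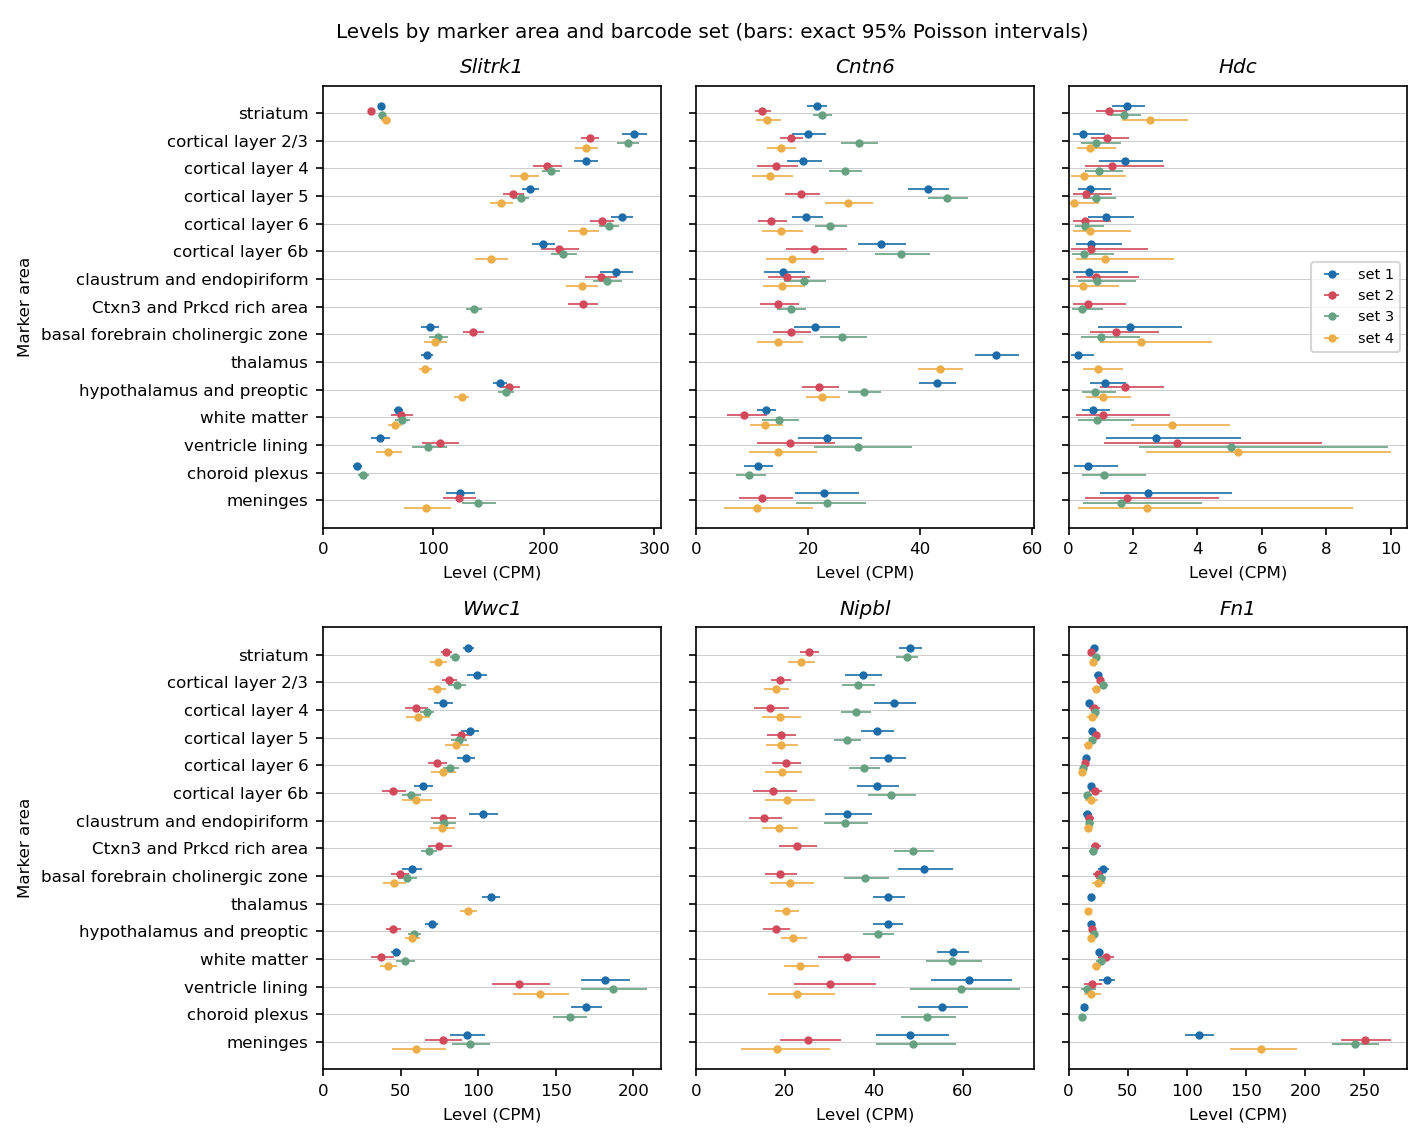
Level in CPM of each gene (6 panels) in each area, with 1 point per barcode set that held at least 30 spots of the area and exact 95% Poisson bars. The horizontal CPM scale differs between panels. Slitrk1 stands at 234.3 CPM or more in layers 2/3 and 6 and claustrum and at 56.8 CPM or less in striatum, Fn1 at 110.4 CPM or more in meninges only, and Nipbl lies higher in sets 1 and 3 than in sets 2 and 4 in the 12 areas found in all sets.

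Cntn6 was highest in the thalamus, with 53.6 CPM from 703 counts in set 1 and 43.5 CPM from 478 counts in set 4. These were 2.21 (interval 2.03 to 2.39) and 2.45 (2.20 to 2.72) times the other spots, and 2.87% of the tested genes were at least 2-fold higher there in both sets. Layer 5, which holds the neurons that project from the cortex to the brain stem and striatum, was at 41.4, 18.8, 44.9 and 27.1 CPM in sets 1 to 4. Its ratios of 1.63, 1.20, 1.78 and 1.33 all had intervals above 1, as for 10.1% of the tested genes. In both sets with thalamus, layer 5 had less than thalamus, at 0.623 and 0.772 of its level. The hypothalamus and preoptic area had 22.0 to 43.1 CPM and layer 6b 33.1, 21.1, 36.6 and 17.2 CPM.

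In the striatum Cntn6 was at 21.6, 11.9, 22.6 and 12.8 CPM. The ratios to the other spots were 0.788, 0.699, 0.807 and 0.582, below 1 in 4 of 4 sets as for 33.9% of the tested genes. White matter, at 8.59 to 14.8 CPM, and choroid plexus, at 11.0 and 9.57 CPM, were lowest. In choroid plexus the ratios were 0.406 and 0.348, below 1 in both of its sets. In the order of areas by median level, all 14 neighbouring pairs had overlapping ranges over sets, since the sets differed by more than most neighbours did. After thinning to 10000 counts, 36.4% and 34.0% of thalamic spots had a Cntn6 count, against 9.64% to 20.4% in striatum and 10.2% to 11.6% in white matter. Within cortical layers 2/3 to 6 the top end in oligodendrocyte genes had 0.612 times the Cntn6 level of the bottom end in the median. It was lower in 4 of 4 sets, with ratios of 0.564 to 0.732, as 8.35% of the tested genes were. With the ends taken within each layer the ratios were 0.533 to 1.01, below 1 in 3 of 4 sets.

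Among 18 other genes of contactins, their membrane partners and receptors, 3 were at least 2-fold higher and 0 were 2-fold lower in thalamus in both sets, against 2.87% and 7.43% of the tested genes. The 3 were Cntnap5c, Cntn4 and Cntnap3, at 3.09, 2.26 and 2.25 times the other spots. Cntnap5a was the lowest at a log2 ratio of -0.99. The median log2 ratio of the list was 0.10 against -0.05 over all tested genes. In layer 5, 0 of these genes were 2-fold apart in either direction in every set, against 0.421% higher and 4.34% lower of the tested genes. In striatum 2 were 2-fold lower, with Cntnap4 at -1.86 the lowest, against 8.88%, and in white matter 2 were 2-fold higher, with Cntn2, a contactin of myelinated axons, at 1.91, where 4.28% of the tested genes were higher. The genes most like Cntn6 over the 54 sums were Syt4, Nmnat2, Tmem150c, Syn2 and Pdxp, with correlations of 0.77, 0.77, 0.76, 0.76 and 0.76.

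Hdc was close to the limit of detection in every area. Over the whole section the 4 sets held 195, 123, 180 and 124 counts, or 1.12, 1.12, 1.09 and 1.37 CPM, and no spot had more than 3. The highest level was in the ventricle lining, which holds the ciliated ependymal cells, at 2.72, 3.37, 5.03 and 5.27 CPM from 8, 5, 8 and 9 counts. The ratios to the other spots were 2.49 (interval 1.06 to 5.02), 3.09 (0.984 to 7.41), 4.78 (2.03 to 9.63) and 4.08 (1.82 to 8.02). All 4 were at least 2-fold, as they were for 7.59% of the tested genes, and 3 of the 4 intervals lay above 1, as all 4 did for 17.0% of the genes. With TMM scaling the log2 ratio of Hdc in set 1 was 0.97, and in areas from clusters it was 0.20 in set 4, both under 2-fold. Ependymal genes summed to 1970 to 3320 CPM in the lining and to 14.6 to 26.0 CPM in the striatum. Genes of histaminergic neurons other than Hdc were also higher there, at 80.1 to 130.0 CPM against 19.8 to 21.8 CPM in striatum, but they reached 130.7 to 155.3 CPM in thalamus and 97.9 to 116.5 CPM in choroid plexus, where Hdc was at 0.305 to 0.910 and 0.596 to 1.10 CPM. Their part in the Hdc level was not tested. Maob and Slc18a2 of that list had 2.47 and 5.47 times the level of the other spots in the lining. In thalamus Maob had 5.86 times and Slc18a2 0.281 times, and in choroid plexus 3.37 and 2.73 times. The remaining genes of the list are not given singly, so its sum cannot be read as a level of histaminergic neurons.

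The striatum, by contrast, gave Hdc its largest number of counts. It held 50, 29, 53 and 26 counts, or 1.81, 1.25, 1.73 and 2.53 CPM, against 0.168 to 0.848 CPM in layer 5 from 1 to 12 counts. The ratios of striatum to the other spots were 1.84 (interval 1.30 to 2.55), 1.15 (0.733 to 1.76), 1.83 (1.30 to 2.54) and 2.08 (1.30 to 3.23). In sets 1, 3 and 4 the interval lay above 1 and in set 2 it held 1, while 17.8% of the tested genes passed in all 4 sets. Striatal spots held 21.0% to 29.4% of the Hdc counts of a set and 11.3% to 21.1% of all counts. Among thinned spots, 1.83%, 1.20%, 1.62% and 3.63% of striatal spots had a count, against 0%, 0.680%, 0.633% and 0.385% in layer 2/3. Basal forebrain spots were close to the striatum, with a count in 1.72%, 1.29%, 1.30% and 2.00% of thinned spots and 1.02 to 2.25 CPM, and white matter had 0.837% to 3.30%. The hypothalamus and preoptic area, at 1.12, 1.76, 0.814 and 1.07 CPM from 11 to 17 counts, did not differ from the other spots beyond counting error in any set. Whether these spots reach the posterior hypothalamus, where Hdc neurons are known, was not tested.

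Marker genes of mast cells, the other known source of histamine in the brain, had few counts. These 8 genes summed to 115, 258, 121 and 319 counts in sets 1 to 4. Spots with such a count had 0.725, 1.52, 0.995 and 0.664 times the Hdc level of spots without one, and all 4 intervals held 1. Hdc in meninges, where mast cells are known to sit, was at 2.46, 1.83, 1.62 and 2.45 CPM from 2 to 7 counts. The mast cell genes summed to 0 to 6.11 CPM there, against 0.398 to 3.02 CPM in striatum and 0.494 to 6.26 CPM in white matter. Spots with a count of these genes therefore cannot be taken to hold mast cells, and the comparison of such spots says little about them. In the order of areas 13 of 14 neighbouring pairs had overlapping ranges. Of 6 other tested genes of histamine handling, Slc18a2, the vesicular transporter of monoamines, was the lowest in the striatum at a log2 ratio of -3.03, and the receptor gene Hrh3 the highest at 0.94. The receptor gene Hrh2 was the lowest of the list in the ventricle lining, at -1.79. Genes whose pattern over areas was among the most like that of Hdc were Ctbs, Mro, Rfx4 and Nat8, with correlations of 0.78, 0.75, 0.74 and 0.73.

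Wwc1 was highest where epithelial cells line the ventricles. In the ventricle lining it was at 181.6, 126.6, 186.6 and 139.9 CPM from 535, 188, 297 and 239 counts. In choroid plexus, the epithelium that makes cerebrospinal fluid, it was at 169.4 and 158.9 CPM in sets 1 and 3 from 1137 and 863 counts. The ratios to the other spots were 2.11, 1.76, 2.38 and 2.00 in the lining and 2.01 and 2.07 in choroid plexus. Choroid plexus was thus at least 2-fold higher in both of its sets, as 11.0% of the tested genes were, while the lining passed in 3 of 4 sets. In areas from clusters the log2 ratio of Wwc1 in choroid plexus was 0.95 in set 1, and with every spot in its highest area it was 0.996 in set 1, both just under 2-fold.

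Spots of the lining also carried RNA of choroid plexus genes, at 16190, 417, 11778 and 658 CPM in sets 1 to 4. In the 25 to 42 lining spots lowest in these genes they fell to 613, 154, 270 and 78.2 CPM. Wwc1 in those spots was at 186.2, 121.0, 127.7 and 116.7 CPM, or 2.17, 1.68, 1.63 and 1.67 times the other spots. The ratio was smaller than over all lining spots in sets 2, 3 and 4, where it was under 2-fold, and about the same in set 1. The part of choroid plexus RNA in the Wwc1 level of the lining was not otherwise tested. Hdc in the same spots had ratios of 2.38, 3.39, 10.1 and 4.39, from 3 to 6 counts, with intervals above 1 in sets 3 and 4.

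In neuronal areas Wwc1 moved within a narrower range. The thalamus had 108.2 and 93.7 CPM, layer 5 had 86.1 to 94.6 CPM and the striatum 93.8, 79.6, 85.2 and 74.4 CPM. Striatal ratios were 1.09, 1.13, 1.09 and 1.05. White matter was lowest, at 47.2, 37.6, 52.8 and 42.2 CPM, with ratios of 0.512, 0.511, 0.657 and 0.575 that lay below 1 in 4 of 4 sets, as for 21.5% of the tested genes. Basal forebrain spots, at 45.6 to 57.2 CPM, and hypothalamic spots, at 45.3 to 70.0 CPM, were each above white matter within all 4 sets, although their ranges over sets overlapped with it. Thinned to 10000 counts, 74.0% to 86.0% of lining spots, 51.8% to 63.5% of striatal spots and 28.2% to 41.8% of white matter spots had a Wwc1 count.

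Other genes of the Hippo pathway, which restrains growth through the coactivators Yap1 and Wwtr1 and their Tead partners, were often higher in the same areas. Of 19 other genes, 6 were 2-fold higher and 0 were 2-fold lower in the lining in every set, against 7.59% and 2.17% of the tested genes, with a median log2 ratio of 0.60 against 0.15 over all tested genes. In choroid plexus 7 were 2-fold higher in both of its sets, against 11.0% of the tested genes, with a median of 0.68 against -0.20. Tead1 led in the lining at 2.14 and Tead2 in choroid plexus at 3.04. Prkcz, an atypical protein kinase C that KIBRA binds, was the lowest in both, at -0.73 and -0.97. In meninges 3 of the 19 were 2-fold higher, led by Ptpn14 at 2.51, against 4.04% of the tested genes. In striatum 1 was 2-fold lower, Stk3 at -1.30, against 8.88%. Cfap74, Dnaja4, Cmss1, 1700030J22Rik and Wdr90 were most like Wwc1 over areas, with correlations of 0.86, 0.83, 0.82, 0.81 and 0.80.

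Nipbl differed little between areas. Relative to the whole section its median level was highest in the ventricle lining at 1.38 times, followed by white matter at 1.31 and choroid plexus at 1.22, with striatum at 1.14. Claustrum and endopiriform spots were lowest at 0.77 times, and the highest area was 1.79 times the lowest. No area was 2-fold higher or lower in every set. In white matter Nipbl was at 57.8, 34.0, 57.7 and 23.5 CPM in sets 1 to 4, in striatum at 48.2, 25.6, 47.6 and 23.6 CPM, and in layer 2/3 at 37.5, 19.0, 36.4 and 18.0 CPM.

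Between the sets, Nipbl differed most of the 6 genes. Over the whole section it was at 46.0, 21.1, 42.1 and 20.5 CPM, from 8034, 2315, 6958 and 1862 counts. The highest set was 2.24 times the lowest (interval 2.13 to 2.36), and Nipbl alone of the 6 reached 2-fold, as 16.9% of the tested genes did. Sets 1 and 3 lay 1.09-fold apart and sets 2 and 4 1.03-fold apart, the latter within counting error at 0.968 to 1.09. Within each of the 12 areas found in all sets the highest set was 2.04 to 2.72 times the lowest, so the sets differed as much within areas as over the section. Sets 1 and 3 lay above sets 2 and 4 in all 12 areas. They also had more counts per spot than sets 2 and 4, and the part of depth in the difference was not tested. Of all tested genes 37.3% had this order, and 52.6% after TMM scaling, so the order itself was common.

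Genes of cohesin, the ring that holds sister chromatids and forms chromatin loops, showed the same order more often than not. It held for 10 of 13 tested genes of the list with Nipbl included, and 3 of the 13 were at least 2-fold apart, Nipbl, Stag1 at 2.37 and Pds5a at 2.11, near the 16.9% of all tested genes. The median gene of the list was 1.62-fold apart, against 1.47 over all tested genes. Over areas, 0 of 12 other cohesin genes were 2-fold higher or lower in any area in every set. In the ventricle lining, where Nipbl was highest relative to the section, their median log2 ratio was 0.36 against 0.15 over all tested genes, with Stag2 the highest at 0.82 and Esco1 the lowest at -0.26. Lig3, Hist1h2bc, Bet1, Hsd17b10 and Szrd1 were most like Nipbl over areas, at 0.85, 0.84, 0.83, 0.83 and 0.83.

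**Figure D4:**
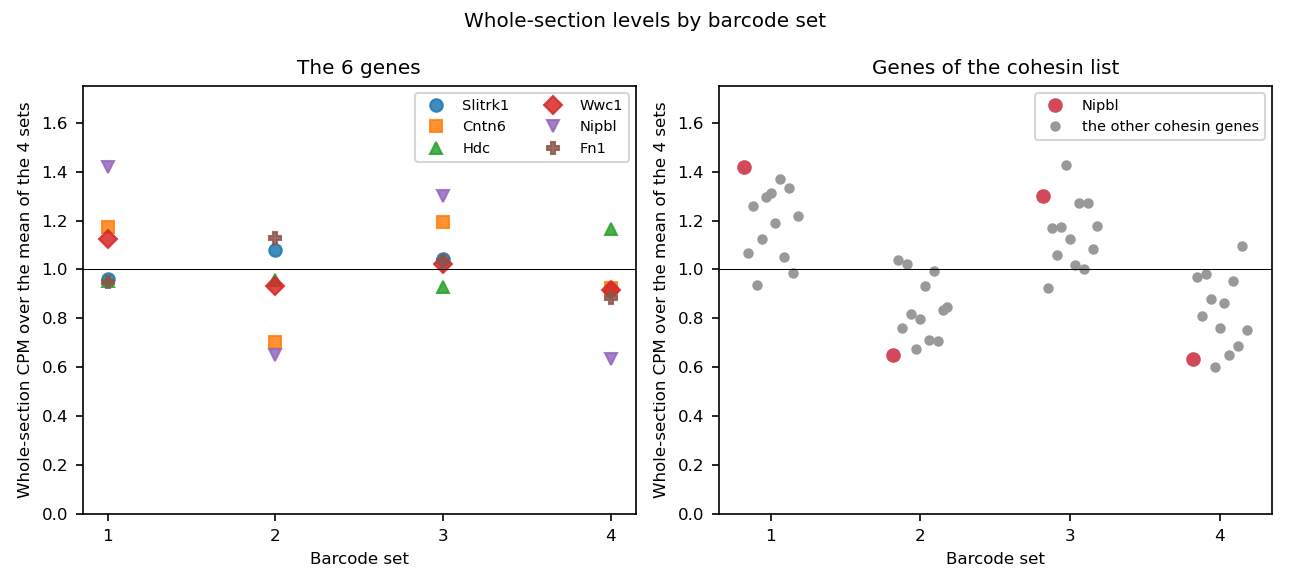
Level over the whole section in each barcode set over the mean of the 4 sets, for the 6 genes (left) and for the tested genes of the cohesin list (right), with 1 point per gene and set. Nipbl spans 20.5 to 46.0 CPM and Cntn6 15.9 to 26.9 CPM, while the other 4 genes stay within 1.28-fold.

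The other 5 genes differed less between sets. Cntn6 was at 26.5, 15.9, 26.9 and 20.9 CPM, with the highest set 1.69 times the lowest (interval 1.60 to 1.79). Sets 1 and 3 lay above sets 2 and 4 in 11 of 12 areas for Cntn6, 10 for Wwc1, 6 for Slitrk1, 2 for Fn1 and 1 for Hdc. The share of all tested genes with this order within areas is not given here. Fn1 was at 22.4, 26.7, 24.5 and 20.9 CPM, 1.28-fold apart, and Hdc was 1.25-fold apart with an interval of 0.989 to 1.58 that held 1. Wwc1 was at 87.5, 72.6, 79.5 and 71.3 CPM, 1.23-fold apart, and Slitrk1 at 144.9, 162.8, 157.4 and 139.0 CPM, 1.17-fold apart. After TMM scaling the highest and lowest sets were 2.66-fold apart for Nipbl, 1.88 for Cntn6, 1.46 for Wwc1, 1.37 for Fn1, 1.33 for Slitrk1 and 1.16 for Hdc. Within the striatum the highest and lowest sets were at least 2-fold apart for Hdc and Nipbl, as for 16.9% of 13172 genes tested there.

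Fn1 was a gene of the meninges, the vessel-rich membranes over the brain. It was at 110.4, 250.9, 241.9 and 162.7 CPM there, from 314, 549, 598 and 133 counts in 73 to 106 spots. In every other area and set Fn1 was at 32.2 CPM or less. The ratios to the other spots were 5.27 (interval 4.68 to 5.92), 11.3 (10.3 to 12.4), 11.4 (10.5 to 12.5) and 8.29 (6.90 to 9.89). In the same spots 4.04% of the tested genes were at least 2-fold higher in every set. Meningeal spots held 0.901% to 2.00% of all counts and 7.01% to 18.8% of the Fn1 counts.

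Meningeal spots were a mixture that reached into the cortex below. Fibroblast genes summed to 1045 to 1882 CPM there, endothelial genes to 479 to 907, mural genes to 439 to 1211, astrocyte genes to 6739 to 8319 and cortical excitatory genes to 1115 to 1553 CPM. Dcn, Lum, Col1a1, Col1a2, Slc6a13 and Igf2 of the fibroblast list were also markers that placed spots in meninges. The high fibroblast sum there thus follows from how the area was chosen. In striatum the fibroblast list was at 61.7 to 72.4, the endothelial list at 172 to 231 and the mural list at 118 to 176 CPM. The part of each in the Fn1 level was not tested. In choroid plexus the fibroblast list summed to 1480 to 1550 CPM and Fn1 was lowest, at 12.7 and 11.2 CPM. Igf2, alone of that list, was among the 10 leading genes of choroid plexus. The share of each gene in the sum is not given here, so it cannot be read as a level of fibroblasts. Layer 6 was low as well, at 14.4, 14.3, 11.9 and 11.4 CPM, with ratios of 0.629, 0.516, 0.469 and 0.533 that lay below 1 in 4 of 4 sets, as for 19.0% of the tested genes. Striatum was at 18.7 to 23.1 CPM, within the range of most other areas.

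Away from the meninges Fn1 went with vessel genes, and in the cortex also with astrocyte and microglia genes. Within the striatum the top end in endothelial genes had 1.43 to 1.92 times the Fn1 level of the bottom end, and the top end in fibroblast genes 1.32 to 1.73 times. Both were higher in 4 of 4 sets, as 0.414% of the tested genes were for either list. For mural genes the ratio was 1.37 to 1.81, and for astrocyte genes its median was 1.15. Within cortical layers 2/3 to 6 the ratio was 2.20 to 3.15 for endothelial genes, 1.79 to 2.30 for mural, 1.70 to 2.30 for astrocyte and 1.48 to 2.34 for fibroblast genes, all above 1 in 4 of 4 sets. Of the tested genes 4.01%, 2.88%, 8.25% and 3.27% were higher in all sets for these lists. The top end in excitatory genes had less Fn1, at 0.459 to 0.646 times the bottom end, as 8.02% of the tested genes did in all sets. These ends also held different layers, and with the ends taken within each layer the ratios were 2.09 to 3.09 for endothelial, 1.85 to 2.22 for mural, 1.29 to 1.86 for astrocyte, 1.27 to 2.35 for fibroblast and 0.555 to 0.728 for excitatory genes. For microglia genes the ratio within layers was 1.56 to 1.96, above 1 in 4 of 4 sets and close to that for astrocyte genes. The share of all tested genes is not given for the microglia list, nor for any list with the ends taken within layers. How common such ratios were among all genes is therefore not shown. For oligodendrocyte genes the ratio of 0.543 to 0.712 over the layers together became 0.961 to 1.20 within layers, and all 4 intervals then held 1.

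The genes whose pattern over areas was most like that of Fn1 were Cldn5, Vtn, Ptprb, Stab1 and Adgra2, with correlations of 0.96, 0.95, 0.94, 0.93 and 0.92. Cldn5 encodes the tight junction protein claudin 5 of brain endothelium, and it and Vtn are also on the marker lists used above. Among 11 other tested genes of integrins, syndecan and transglutaminase that bind or crosslink fibronectin, 1 was 2-fold higher and 0 were lower in meninges in every set, against 4.04% and 0.501% of the tested genes. That gene was Tgm2, a transglutaminase, at a log2 ratio of 2.48. The list's median there was 0.93 against -0.01 over all tested genes, and Itga5, a subunit of the main fibronectin receptor, was the lowest at -0.26. In striatum 2 of the 11 were 2-fold higher, with Itga5 at 3.31 the highest, and 1 was 2-fold lower, Itga8 at -1.89, against 2.90% and 8.88% of the tested genes.

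Across the 54 sums the 6 genes did not share a pattern. Slitrk1 and Nipbl had the strongest correlation, at -0.73, followed by Slitrk1 and Hdc at -0.47 and Hdc and Nipbl at 0.45. Slitrk1 and Cntn6, both adhesion genes, had 0.36. In the striatum itself only Slitrk1 was 2-fold apart from the other spots in every set, at a median of 0.310 times their level. Cntn6 was also lower there in 4 of 4 sets, and Hdc, Wwc1 and Nipbl were higher in 3 of 4.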

How the data were processed

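Raw whole-number counts per gene and spot were deposited by the authors as 1 table, made with Space Ranger and Seurat per the submitters' processing notes. Versions, genome build, probe set and filters are not given in the sources used here. Spots with under 500 counts were left out (1 spot). A spot took the area with the highest mean z of log2(counts per 10000 + 1) of its markers, if at least 0.5 and 0.25 above the next. Counts were summed by area and barcode set. Levels have exact Poisson, shares Clopper-Pearson and ratios conditional binomial intervals at 95%. No SD, test or doublet step was used, and edgeR's planned comparison of genotypes was not run, since no set has a genotype.

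The members and lists were chosen with earlier results of these data known. Genes named were the 6, the highest and lowest of each related list where its member led, and the 5 most correlated on log2(CPM + 1) over sums with the set mean removed, at a mean of at least 5 CPM. Slitrk2, Slitrk3, Slitrk5, Ptprd, Ptprs, Cntn4, Cntnap3, Maob and genes named in other areas were named after their values were seen. The intervals make no allowance for many comparisons. Etv1, Hrh4 and some further genes were not analysed here, and 1 gene the naming rule gave is not reported here. The 6 of 6 symbols matched RefSeq.

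On simulated data with 200 of 13773 genes 4-fold higher in striatum, 100% were found and 0 others. All other genes had the same pooled profile in every area and set, so this check covers counting error only. Of 10411 redrawn spots 98.1% regained their area. They were redrawn from the mean marker profile of the area already given, so this cannot show whether mixed spots were misplaced. Alternatives were stricter and looser areas, Leiden clusters, TMM and RLE scaling, a minimum of 2000 counts, other thresholds and each set left out. Further ones, on cortical ends within layers, choroid plexus RNA in the lining and the striosome list, were added after the data were seen. Software was Python 3.11.15, numpy 2.4.6, scipy 1.17.1, pandas 2.3.3, scikit-learn 1.9.0, python-igraph 0.11.9, leidenalg 0.10.2, matplotlib 3.10.9, R 4.3.3 and edgeR 4.0.16.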

Additional observations from a re-analysis of the deposited data

Results flagged for a closer look

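Of 78 groups of 4 sets that were checked for a set far from the others, 3 had one, and chance gives about 1 in 20. Hdc over the whole section was at 1.37 CPM in set 4 against 1.12, 1.12 and 1.09 CPM in sets 1 to 3, and TMM scaling gave 1.20, 1.07, 1.16 and 1.24. Hdc in white matter was at 3.22 CPM in set 4, from 19 counts, against 0.768, 1.07 and 0.872 CPM from 14, 3 and 5 counts. Wwc1 in claustrum and endopiriform spots was at 103.1 CPM in set 1 against 77.3, 78.1 and 76.7 CPM in the others.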

How the results depend on the processing

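No paired analysis was possible because no barcode set has a replicate number or an animal. The genotype test was not run for the same reason. Over 11 alternatives the median log2 ratio stayed between 1.11 and 1.29 for Cntn6 in thalamus, 2.83 and 3.55 for Fn1 in meninges, 1.25 and 2.05 for Hdc in ventricle lining, 0.27 and 0.39 for Nipbl in choroid plexus, where its CPM was highest, 0.76 and 1.00 for Slitrk1 in layer 2/3, and 0.91 and 1.07 for Wwc1 in choroid plexus. With each set left out in turn the ranges were 1.11 to 1.28, 2.88 to 3.55, 1.55 to 2.05, 0.27 to 0.33, 0.87 to 0.89 and 1.01 to 1.05 in the same order. Wwc1 in choroid plexus had 0.91 in areas from Leiden clusters, against 1.03. Layer 4 had no cluster of its own. The leading area of Hdc, Fn1 and Cntn6 stayed the same, that of Slitrk1 moved between layer 2/3, layer 6 and claustrum, and those of Wwc1 and Nipbl to or from the ventricle lining.

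The 4 higher pairs of gene and area became 8 at 1.5-fold, 1 at 3-fold (Fn1 in meninges) and 2 with clusters (Fn1 in meninges and Cntn6 in thalamus). The 4 lower pairs became 12 at 1.5-fold and 1 at 3-fold (Slitrk1 in choroid plexus). Slitrk1 in white matter was no longer 2-fold lower in every set with looser areas, with z within each set or with areas rebuilt without set 1, nor Cntn6 in choroid plexus with clusters. Wwc1 in choroid plexus was no longer 2-fold higher in both sets with looser areas. Hdc in the lining fell just under 2-fold in set 1 with TMM scaling, at a log2 ratio of 0.97, and had 0.20 in set 4 with clusters. TMM moved log2 ratios by a median of 0.20 in striatum, -0.32 in the lining and -0.20 in meninges, which gave Slitrk1 in striatum -1.42, -1.97, -1.53 and -1.25.

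Of the ratios per set, 2990 stayed within the counting interval of the reported ratio and 186 moved out of it. A further 12, whose reported interval left out 1, changed sign. Sign changes of ratios whose reported interval held 1 were not counted apart. With every spot in its highest area, Cntn6 in layer 6 of set 3 had 0.085 (reported -0.18) and Slitrk1 in meninges of set 1 had 0.019 (-0.23). With clusters, Cntn6 had 0.051 in basal forebrain of set 4 (-0.53) and -0.066 in layer 6b of set 2 (0.42), Slitrk1 0.058 in hypothalamus of set 4 (-0.17) and 0.42, 0.13 and 0.20 in meninges of sets 1, 3 and 4 (-0.23, -0.16 and -0.59), and Wwc1 -0.057 and -0.12 in layer 2/3 of sets 1 and 3 (0.19 and 0.12). Wwc1 in meninges of set 3 had -0.015 with TMM (0.26), and Fn1 in hypothalamus of set 3 had 0.0021 against spots without meninges, lining and choroid plexus (-0.20). With cortical ends taken within each layer, Fn1 by oligodendrocyte genes had 0.27, 0.19 and 0.13 in sets 1 to 3 and Cntn6 0.017 in set 2, all below 0 over the layers together. At a minimum of 20 CPM, 2 of the 5 genes most like Hdc and 3 of 5 for Wwc1 and Fn1 were the same. The cause was not tested. Depth limits Hdc above all, at 1 to 53 counts in the areas named.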
